A study of Homo sapiens with 6 samples.

Results

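The 10 genes described here are cancer-testis antigen genes, a set chosen by name with earlier results of these data known. The genes are MAGEB2, MAGEA4, MAGEC1, MAGEC2, CT55, SSX1, PAGE1, SPANXB1, PRAME and CTCFL. They are 10 of the 19775 genes that the array platform's annotation names alone on at least 1 probe set, and they hold 12 of the 41091 probe sets of that kind. SSX1 and MAGEC2 have 2 such probe sets each, and the other 8 genes have 1. RNA came from A2058, an established human melanoma cell line, kept as 3 lines: Mock, TET2WT and TET2M, the latter pair overexpressing the construct of that name. Each line was grown for 7 days in DMEM with high glucose (4.5 g/L) or normal glucose (1 g/L) and was measured on 1 Affymetrix array per concentration, 6 arrays in all. The sources used here do not give what the construct TET2M carries, which promoter drives the constructs or whether a line is 1 clone. Because no combination of line and glucose was repeated, a line was compared over its 2 arrays and a concentration over its 3. The p-values rest on how unevenly the lines differed between the concentrations, with the spread drawn in part from all genes. They do not measure a spread between repeated cultures, since each combination was 1 culture as far as the labels show. The comparisons ask which cancer-testis genes differ with TET2 overexpression and which with glucose.

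Cancer-testis antigens are proteins made in the germ cells of the testis and in many tumours, and hardly at all in other adult tissues. Most of their genes lie on the X chromosome in families of near-identical copies, and their promoters are usually kept silent in somatic cells by methylation of the cytosines in CpG dinucleotides. TET2 oxidises such methylated cytosines, a step towards their removal. Melanomas often express MAGE, SSX and PRAME genes, and several of the proteins are targets of immunotherapy. No methylation was measured in these samples.

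The stretches upstream of the transcription starts are shown because promoter CpGs are where methylation acts on these genes. In the RefSeq promoter table for GRCh38.p14 all 10 genes matched, with 19 windows of 300 bases among 35091, each window covering 250 bases before and 50 after a start. The 250 bases before the start are printed for the 5 genes that differed between the lines, and for MAGEC2 as a gene that was high on every array, all 5′ to 3′ on the gene's strand with each CpG in capitals. They lie at chrX:30215313-30215562 (plus strand) for MAGEB2, chrX:135171828-135172077 (minus strand, the outer of 2 starts) for CT55, chrX:48255142-48255391 (plus) for SSX1, chrX:49695985-49696234 (minus) for PAGE1, chrX:141002344-141002593 (plus) for SPANXB1 and chrX:142205291-142205540 (minus) for MAGEC2.
MAGEB2: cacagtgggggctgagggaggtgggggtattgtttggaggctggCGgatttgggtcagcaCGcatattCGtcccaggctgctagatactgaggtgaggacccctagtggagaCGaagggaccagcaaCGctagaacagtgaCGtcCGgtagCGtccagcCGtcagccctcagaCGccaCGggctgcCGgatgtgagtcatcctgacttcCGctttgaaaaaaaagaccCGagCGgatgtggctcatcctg
CT55: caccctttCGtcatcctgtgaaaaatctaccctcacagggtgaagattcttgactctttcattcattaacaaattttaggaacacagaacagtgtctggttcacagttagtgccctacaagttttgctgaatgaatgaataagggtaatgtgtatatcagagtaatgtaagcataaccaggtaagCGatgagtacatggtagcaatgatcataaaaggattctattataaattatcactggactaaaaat
SSX1: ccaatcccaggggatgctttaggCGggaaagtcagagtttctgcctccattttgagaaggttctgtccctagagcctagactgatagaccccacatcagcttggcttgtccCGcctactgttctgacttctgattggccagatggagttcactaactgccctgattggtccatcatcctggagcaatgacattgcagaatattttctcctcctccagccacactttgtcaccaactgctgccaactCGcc
PAGE1: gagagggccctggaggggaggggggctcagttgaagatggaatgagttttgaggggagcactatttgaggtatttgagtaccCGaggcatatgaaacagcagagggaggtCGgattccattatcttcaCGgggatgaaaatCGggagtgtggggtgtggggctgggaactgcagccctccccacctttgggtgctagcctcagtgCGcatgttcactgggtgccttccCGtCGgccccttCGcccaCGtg
SPANXB1: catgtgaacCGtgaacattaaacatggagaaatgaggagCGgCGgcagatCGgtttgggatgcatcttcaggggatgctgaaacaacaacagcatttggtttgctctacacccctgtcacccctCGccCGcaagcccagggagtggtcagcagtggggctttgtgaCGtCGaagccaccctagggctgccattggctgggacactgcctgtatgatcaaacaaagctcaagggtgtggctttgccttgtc
MAGEC2: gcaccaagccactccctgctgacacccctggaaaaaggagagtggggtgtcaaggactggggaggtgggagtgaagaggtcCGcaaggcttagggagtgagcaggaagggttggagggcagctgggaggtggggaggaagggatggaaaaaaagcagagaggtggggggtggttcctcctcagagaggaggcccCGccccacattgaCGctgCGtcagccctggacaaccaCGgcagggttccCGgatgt

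Over the whole 300-base windows MAGEB2 held 21 CpGs, more than 60.5% of all promoters, and SSX1 held 5, more than 29.7%. The CT55 windows held 3 CpGs at the outer start and 10 at the inner one, PAGE1 13, SPANXB1 9 and MAGEC2 10. The median over all windows was 14, with quartiles of 4 and 28. Among the 5 genes, the 2 that were higher with TET2WT thus held the most (MAGEB2) and, by its outer start, the fewest (CT55), and the 3 that were lower held 5 to 13. Of the remaining genes, MAGEC1 had 14 CpGs, the 5 windows of MAGEA4 had 10 to 15, the 3 of PRAME 4 to 13 and the 3 of CTCFL 2 to 19. Motifs were searched on both strands as the exact sequences named here, and other forms of these sites, with or without a CpG, were not counted. GGCGGGAA, a form of the E2F site, occurred once in the SSX1 window and in 3.15% of all promoters, and can be read in the printed sequence near its 5′ end. CACGTG, the E-box bound by MYC, MAX and MITF among others, occurred once in the PAGE1 window and in 7.26% of all. CCGGAA, an ETS site with a CpG, occurred in 1 window of PRAME, in 1 of CTCFL and in 17.2% of all. GGAA, the ETS core that CCGGAA and GGCGGGAA also contain, occurred in 95.5% of all windows and not in that of SPANXB1.

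**Figure D1:**
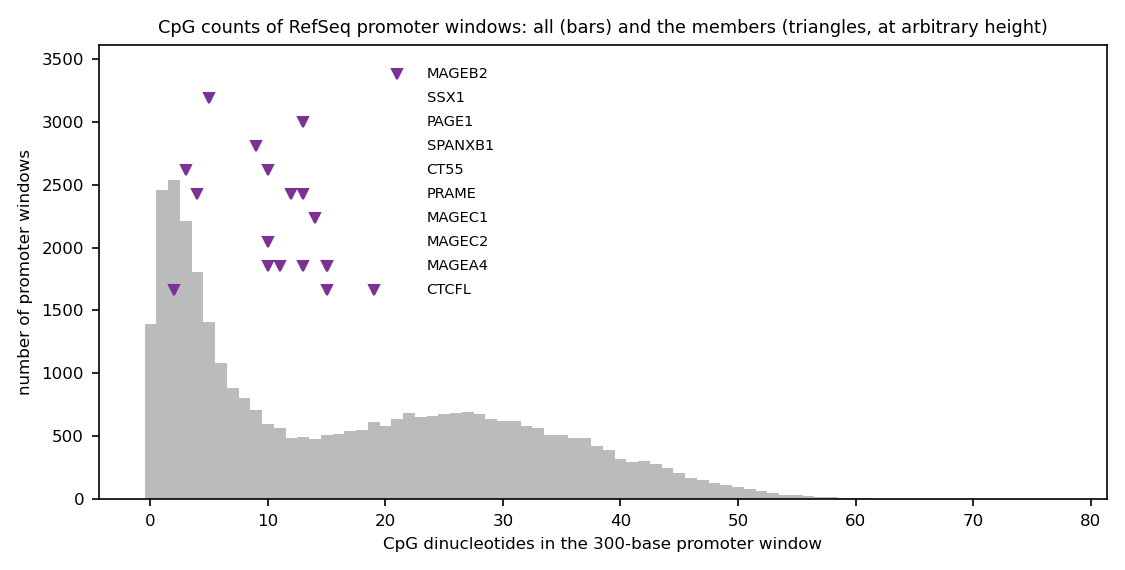
CpG dinucleotides per 300-base promoter window (x axis) against the number of RefSeq windows with that count (grey bars, y axis), with the windows of the 10 genes as triangles at arbitrary heights, 1 row per gene. The 19 windows hold 2 to 21 CpGs, against a median of 14 over all 35091 windows, and none lies in the CpG-rich part above 28.

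The labels were first checked against TET2 and against markers of the cell type. TET2 read 3.81 and 4.13 on the Mock arrays (high glucose first, log2 values throughout), 7.57 and 7.37 on the TET2M arrays and 9.54 and 9.68 on the TET2WT arrays, so both overexpressing lines stood apart from Mock and from each other. SOX10, a transcription factor of the melanocyte lineage, read 9.38 to 9.65 and S100B 7.20 to 7.90. The pigment cell genes MLANA, TYR and TYRP1 were below the low-value level of 2.64 on all 6 arrays, as were the male germ cell genes DAZL, DDX4, PRM2 and SYCP3. That level is the 40th percentile of probe set means. Above it on all 6 arrays were the pigment cell genes PMEL (3.55 to 4.20) and SLC45A2 (3.10 to 3.53) and the male germ cell gene PRM1 (2.73 to 3.33). The pigment cell gene GPR143 was below it on 5 arrays and the male germ cell gene TNP1 on 4. MITF, the melanocyte master regulator, was lower in TET2WT than in Mock by 0.60 ± 0.11 (SE, limma adjusted p = 0.0433). The summed level of the 9 melanocyte markers measured was 39.96 to 40.83 and that of the 6 male germ cell markers 13.97 to 15.34, and the lines overlapped in both sums. Among markers of other cell types, TET2WT was lower than Mock in 1 of 4 tested keratinocyte genes (KRT14), 1 of 4 fibroblast genes (LUM, -1.06, limma adjusted p = 0.0137), 1 of 3 blood genes (LYZ, -0.77, adjusted p = 0.0116) and 0 of 3 endothelial genes. In this comparison 2.2% of all genes passed as lower. The summed level of the 4 keratinocyte markers was 18.68 to 20.08 in TET2WT, 20.39 to 21.77 in TET2M and 21.68 to 21.7 in Mock. TET2WT was lowest in this sum, in which KRT14 was the 1 negative difference from Mock. The other 3 differences were positive, with a median of 0.0175 over the 4. The sums of the 6 fibroblast markers were 19.49 to 20.26 in TET2WT, 20.93 to 21.45 in TET2M and 20.63 to 20.77 in Mock. Of the 4 fibroblast genes tested, 2 were higher in TET2WT than in Mock by sign and 2 lower. Sums of the 5 blood markers, 16.02 to 17.23, overlapped. The markers PTPRC and CD14 of blood, COL3A1 of fibroblasts and CDH5 of endothelium were below the low-value level on all arrays. Other markers on the same lists were above it on all 6 arrays. In blood these were LYZ (5.39 to 6.35) and HBB (3.39 to 4.05). In fibroblasts they were LUM (3.11 to 5.12), COL1A1 (4.18 to 4.81), DCN and PDGFRB. In endothelium they were PECAM1 (4.09 to 4.45) and VWF (3.23 to 3.79). CD3E of blood and COL1A2 of fibroblasts were below it on 5 arrays, and KDR of endothelium on 4. TFAP2A, a transcription factor of the neural crest and 1 of 3 tested genes of the undifferentiated melanoma list, was higher in TET2WT, at 5.34 and 5.42 against 4.49 and 4.34 in Mock and 4.71 and 4.51 in TET2M. Its difference from Mock was 0.96 ± 0.10 (limma adjusted p = 0.00997). The other 2 tested genes of that list did not pass. NGFR read lower, at 2.83 and 2.87 in TET2WT against 3.81 and 3.08 in Mock. AXL was level, at 9.78 and 9.48 against 9.77 and 9.44, and SOX9 was below the low-value level on all 6 arrays. The part of these markers in the results below was not tested. In these bulk samples, fewer expressing cells and less RNA per cell cannot be told apart.

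Of the 10 genes, 8 had a probe set whose mean over the 6 arrays passed the low-value level and were tested with 14428 genes in all. CTCFL (chr20:57495965-57525652), a testis paralog of the insulator protein CTCF, read 2.04 to 2.07 on every array. MAGEC1 (chrX:141903894-141909374), a further MAGE gene, read 2.49 to 2.73, with 5 of 6 arrays below the level. Neither gene was therefore measured above the low-value level in any line apart from 1 Mock array for MAGEC1 (2.73, high glucose).

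**Figure D2:**
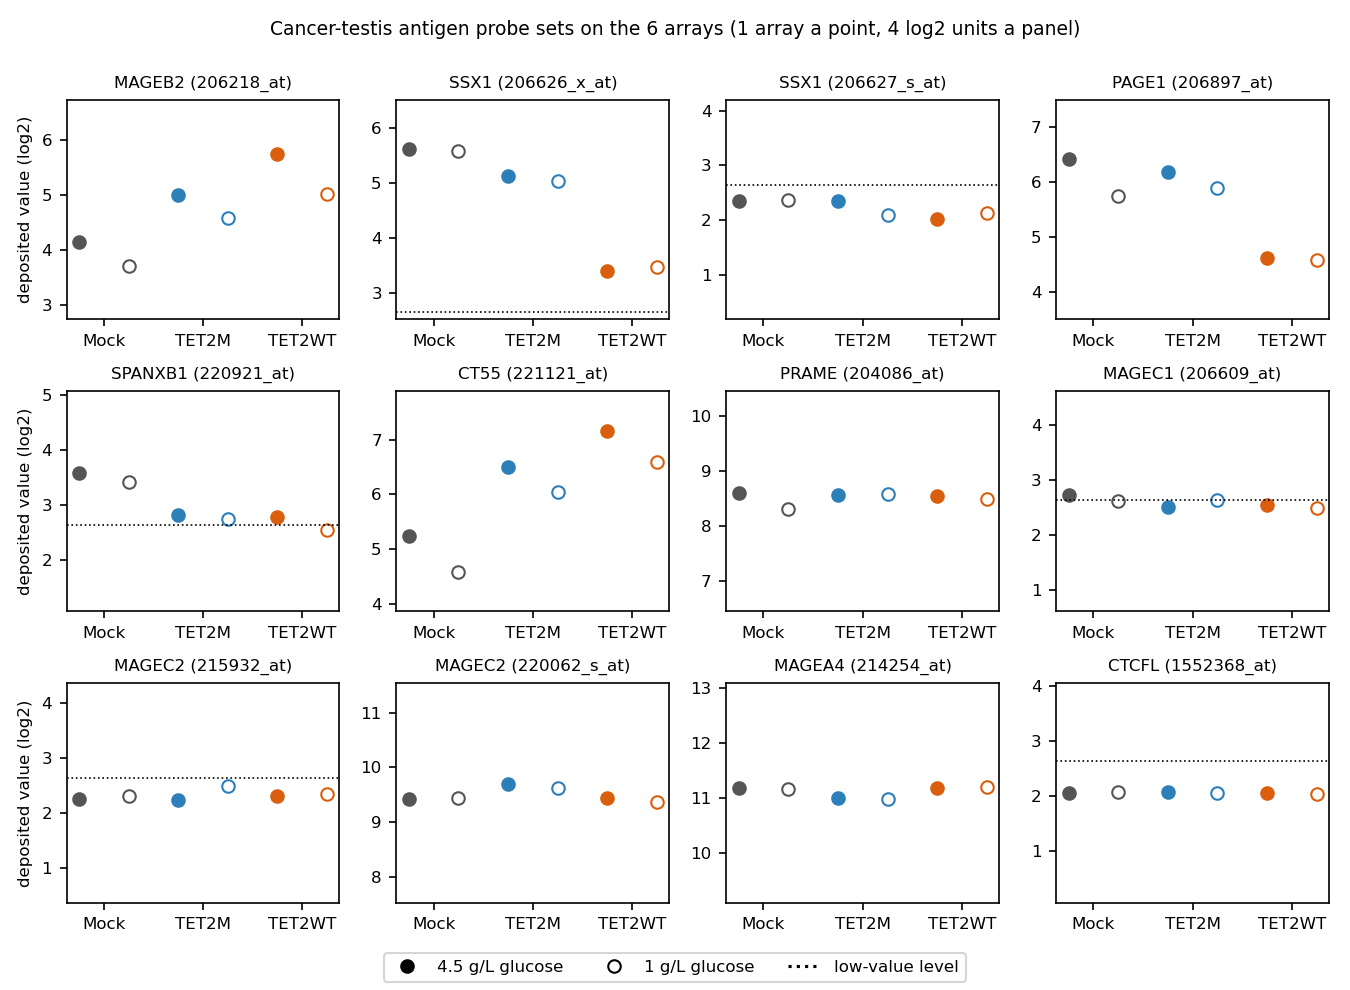
Deposited log2 values (y axis, 4 log2 units in every panel) of the 12 probe sets on the 6 arrays, grouped by line (x axis). Filled points are 4.5 g/L and open points 1 g/L glucose, 1 array each, and the dotted line is the low-value level of 2.64. CT55 and MAGEB2 step up from Mock over TET2M to TET2WT, SSX1 and PAGE1 are low in TET2WT, and MAGEA4, MAGEC2 and PRAME lie flat.

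TET2WT differed from Mock in 5 of the 8 tested genes, and in both directions. CT55 and MAGEB2 were higher, and SSX1, PAGE1 and SPANXB1 were lower. The 3 genes PRAME, MAGEC2 and MAGEA4, which read 8.31 to 11.21, differed by less than their standard error. Among all 14428 genes, 2.01% passed as higher in this comparison and 2.2% as lower, against 2 and 3 of the 8 here. The set was chosen with earlier results of these data known, so the shares are a description and cannot test it for an excess. The median difference of the 8 was 0.00 (-0.0025), beside -0.01 over all genes, because the 2 directions offset each other.

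CT55 (chrX:135156536-135171827 in GRCh38.p14, as for the positions that follow) is a gene expressed in the male germ line. It read 7.16 and 6.59 in TET2WT, 6.5 and 6.05 in TET2M, and 5.25 and 4.59 in Mock. Ranges of the TET2WT and Mock arrays did not overlap, and every TET2M array lay between the highest Mock and the lowest TET2WT array. The difference of TET2WT from Mock was 1.96 ± 0.096 on the log2 scale (SE, 2 arrays a line), a 3.88-fold higher value, with a limma adjusted p of 0.000536.

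MAGEB2 (chrX:30215563-30220089) belongs to the MAGE family, whose shared domain binds RING ubiquitin ligases. Its arrays read 5.76 and 5.02 in TET2WT, 5.0 and 4.58 in TET2M, and 4.15 and 3.72 in Mock. TET2WT and Mock were separated at both concentrations, whereas TET2WT at normal glucose (5.02) and TET2M at high glucose (5.0) were level. The TET2WT value was 2.74-fold that of Mock, a log2 difference of 1.46 ± 0.11 with a limma adjusted p of 0.00334.

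SSX1 (chrX:48255392-48267444) encodes a nuclear transcriptional repressor that is fused to SS18 in synovial sarcoma. Its probe set 206626_x_at read 3.4 and 3.47 in TET2WT, 5.12 and 5.03 in TET2M, and 5.62 and 5.57 in Mock. Gaps between the 3 lines were wider than those between the 2 concentrations within any of them. The difference of TET2WT from Mock was -2.16 ± 0.092, a 4.47-fold lower value (limma adjusted p = 0.000325). The other probe set of SSX1, 206627_s_at, read 2.02 to 2.37 and was below the low-value level on all 6 arrays. The suffix x marks a set with probes that may match other sequences, so which SSX gene the first set reads was not tested.

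PAGE1 (chrX:49687447-49695984), a member of the GAGE-like family of small X-linked antigens, read 4.61 and 4.58 in TET2WT, 6.18 and 5.89 in TET2M, and 6.42 and 5.74 in Mock. TET2WT was below all other arrays, and the TET2M and Mock ranges overlapped. TET2WT differed from Mock by -1.49 ± 0.16, a 2.80-fold lower value (limma adjusted p = 0.00969). The gap was -1.81 at high and -1.16 at normal glucose.

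SPANXB1 (chrX:141002594-141003706) encodes a sperm protein associated with the nucleus and had the smallest difference of the 5. It read 2.78 and 2.55 in TET2WT, 2.82 and 2.74 in TET2M, and 3.58 and 3.41 in Mock. Both Mock arrays were the high ones, and 1 TET2WT array was below the low-value level. Its difference was -0.83 ± 0.091 (limma adjusted p = 0.0101).

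These 5 calls rest on all 6 arrays. Leaving out any 1 array leaves 1 residual degree of freedom, and then no gene of the 8 passed: adjusted p ran from 0.0509 to 0.202 for SSX1, 0.0514 to 0.202 for CT55, 0.129 to 0.242 for MAGEB2, 0.170 to 0.250 for PAGE1 and 0.152 to 0.295 for SPANXB1. The signs held without each array, and the differences stayed within 1.88 to 2.03 for CT55, 1.30 to 1.61 for MAGEB2, -2.23 to -2.09 for SSX1, -1.75 to -1.23 for PAGE1 and -0.88 to -0.78 for SPANXB1.

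The other 3 tested genes read far above the low-value level on every array. MAGEA4 (chrX:151912474-151925170), a MAGE antigen targeted by engineered T cells, read 11.19 and 11.21 in TET2WT and 11.19 and 11.17 in Mock. Its difference of 0.02 had a 95% interval of -0.19 to 0.23. MAGEC2 (chrX:142202342-142205290), whose protein binds the corepressor TRIM28, read 9.44 and 9.38 in TET2WT and 9.43 and 9.44 in Mock by its set 220062_s_at, an interval of -0.24 to 0.19 around -0.03. PRAME (chr22:22547701-22559265), a leucine-rich repeat protein that represses retinoic acid receptor signalling, read 8.55 and 8.5 in TET2WT and 8.60 and 8.31 in Mock, with an interval of -0.19 to 0.33. All 3 intervals leave out the size of change seen in the other 5 genes, of which the smallest was 0.83. The second set of MAGEC2, 215932_at, read 2.23 to 2.5, below the low-value level on all arrays.

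In TET2M against Mock 1 of the 8 genes passed. CT55 was higher by 1.36 ± 0.096, a 2.56-fold difference (limma adjusted p = 0.00959). In this comparison 0.0277% of all genes passed as higher and 0.0693% as lower, which is 4 and 10 genes, CT55 being 1 of the 4. MAGEB2 differed by 0.86 ± 0.11 and SPANXB1 by -0.72 ± 0.091, both with a limma adjusted p of 0.102. SSX1 differed by -0.52 ± 0.092 (adjusted p = 0.214). The TET2M and Mock arrays of these 3 genes did not overlap, and none of the 3 passed. How many of all genes separate in this way, with 2 arrays a line, was not counted. PAGE1, low in TET2WT, differed by -0.05 ± 0.16 in TET2M. The 2 comparisons share the Mock arrays. The call of CT55 was lost without any 1 array, with adjusted p of 0.451 to 0.954 and differences of 1.27 to 1.44, and without the glucose term (0.402).

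Set against TET2M, TET2WT had 1 gene higher and 2 lower, where 1.86% and 1.43% of all genes passed. SSX1 was lower by -1.64 ± 0.092, 3.12-fold (limma adjusted p = 0.00127), and PAGE1 by -1.44 ± 0.16, 2.71-fold (adjusted p = 0.0105). CT55 was higher by 0.60 ± 0.096 (adjusted p = 0.0338), a call that was lost when every single-gene probe set was tested (0.0503) or the glucose term was dropped (0.422). MAGEB2 had the same difference, 0.60 ± 0.11, and missed the threshold (adjusted p = 0.0537), which it passed under 5 alternatives, with adjusted p of 0.0386 under the 60th percentile filter, 0.0449 with the mean of probe sets, 0.0449 after quantile normalization, 0.0459 after cyclic loess and 0.0251 with an intensity trend. For SPANXB1 the difference was -0.12 ± 0.091 (adjusted p = 0.583), with a 95% interval of -0.34 to 0.11. From high to low the lines thus came in the order TET2WT, TET2M, Mock for CT55 and in the reverse order for SSX1, whose step between TET2M and Mock did not pass. For PAGE1 the neighbours TET2M and Mock did not differ beyond their spread, for SPANXB1 the neighbours TET2WT and TET2M did not. MAGEC2 was 0.25 lower and MAGEA4 0.21 higher in TET2WT, with adjusted p of 0.225 and 0.295. Without any 1 array no gene passed, with adjusted p of 0.0757 to 0.236 for SSX1, 0.100 to 0.428 for PAGE1 and 0.192 to 0.437 for CT55.

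**Figure D3:**
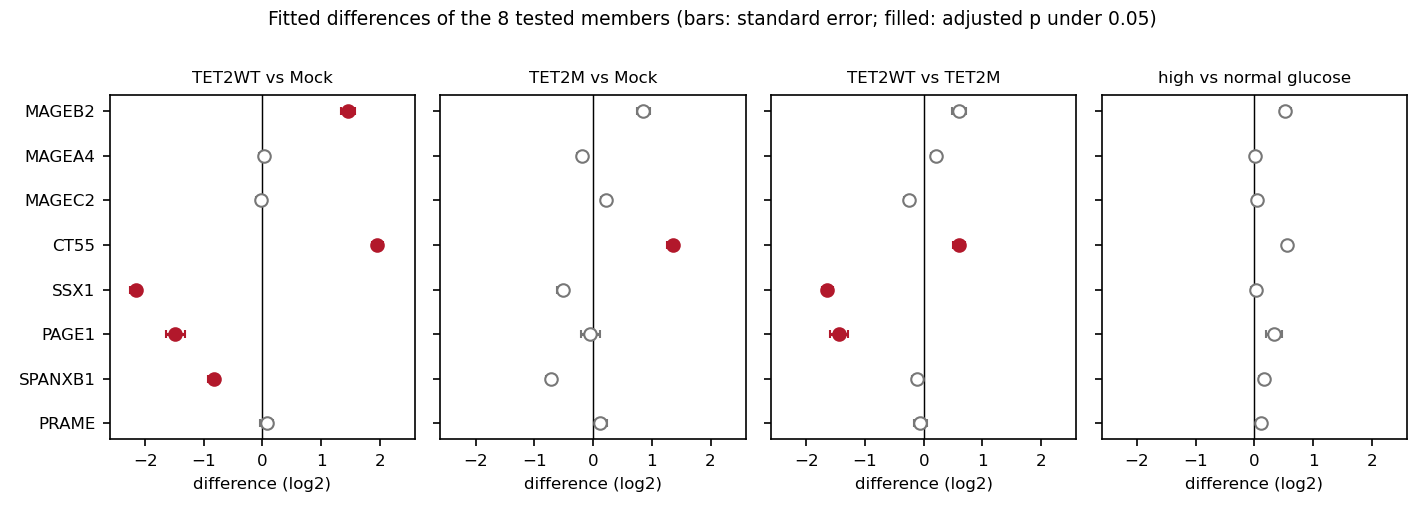
Fitted log2 differences (x axis) of the 8 tested genes (rows) in the 4 comparisons (panels), with bars of 1 standard error; filled points passed an adjusted p of 0.05. In TET2WT against Mock 2 genes lie to the right and 3 to the left, in TET2M against Mock only CT55 is filled, and no point is filled for glucose.

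High glucose gave higher values than normal glucose in all 8 tested genes by sign, and none passed the test. Over all genes 0.00693% passed, which is 1 gene. The median of the 8 was 0.13, beside -0.02 over all genes, and 3 of the 8 had an unadjusted p under 0.05, as did 15.4% of all genes. CT55 was 0.57 higher in TET2WT, 0.66 in Mock and 0.45 in TET2M, a mean of 0.56 ± 0.078 (limma adjusted p = 0.0893). MAGEB2 was 0.74, 0.43 and 0.42 higher in the same order, a mean of 0.53 ± 0.092 (adjusted p = 0.138). In both genes the high-glucose array was the higher one in 3 of 3 lines. PAGE1 was 0.68 higher in Mock against 0.29 in TET2M and 0.03 in TET2WT, a mean of 0.33 ± 0.13 (adjusted p = 0.308). For SSX1, MAGEC2 and MAGEA4 the 3 lines did not share a sign, nor did they for PRAME, with 0.29 in Mock, 0.05 in TET2WT and -0.02 in TET2M. SPANXB1 was 0.08 to 0.23 higher. With a variance trend on intensity 2 of the 8 passed, CT55 and MAGEB2 (adjusted p of 0.00673 and 0.0318). The glucose response of TET2WT minus the mean response of the other 2 lines passed for 0 of the 8 and 0 of all genes in limma. None of the 8 had an unadjusted p under 0.05 there, the nearest being MAGEB2 with 0.32 ± 0.098 (adjusted p = 0.531).

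Few other cancer-testis genes passed in any comparison of the lines. Of 102 other X-linked cancer-testis genes listed, 39 had a single-gene probe set and 20 were tested. In TET2WT against Mock 0 were higher and 2 lower, where 2.01% and 2.2% of all genes passed, with a median of 0.00 (-0.0025). VCX2, a testis gene of the variable charge family, read 6.33 and 6.54 in TET2WT against 7.55 and 7.77 in Mock and 7.49 and 7.47 in TET2M. TET2WT differed from Mock by -1.23 ± 0.10 (limma adjusted p = 0.00443) and from TET2M by -1.045 ± 0.10 (limma adjusted p = 0.00720). SSX3, by its set 207666_x_at, read 4.84 and 4.0 against 5.93 and 5.62, a difference of -1.36 ± 0.23 (adjusted p = 0.0352). That call rests on this set. The other 2 sets of SSX3 alone, 211670_x_at and 211731_x_at, were above the low-value level on all arrays and gave -0.54 and -0.55, which did not pass (limma adjusted p of 0.0822 and 0.130 in a fit over all probe sets). MAGEA11, a coactivator of the androgen receptor, read 7.33 and 7.26 in TET2WT and 6.65 and 6.7 in TET2M, with Mock between them at 7.04 and 6.93. Its differences from Mock were 0.31 and -0.31, neither of which passed, and TET2WT was 0.62 ± 0.092 above TET2M (adjusted p = 0.0271). In TET2M against Mock none of the 20 passed.

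Of 61 autosomal cancer-testis genes 20 were tested, with a median of 0.05 in TET2WT against Mock. LY6K, a GPI-anchored surface protein of the testis, was the 1 that passed, where 2.01% of all genes passed as higher. It read 9.76 and 9.66 in TET2WT, and the other 4 arrays lay lower, Mock at 8.71 and 8.77 and TET2M at 8.65 and 8.31. TET2WT differed from Mock by 0.97 ± 0.12 (limma adjusted p = 0.0138) and from TET2M by 1.23 ± 0.12 (limma adjusted p = 0.00714). None of the 20 passed in TET2M against Mock, where the widest was TSSK6 with 0.33 (adjusted p = 0.604). A further list of 40 germline genes known to be silenced by promoter methylation had 16 tested and 0 called against Mock in either line. In TET2WT against TET2M 1 of the 16 passed as higher and 0 as lower, where 1.86% and 1.43% of all genes passed. It was HENMT1, the methyltransferase of piRNAs, which was 0.79 ± 0.13 higher in TET2WT (limma adjusted p = 0.0380). Of the 16 differences there 11 were negative, with a median of -0.0575. DAZL and DDX4, both on that list, stayed below the low-value level as given above.

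**Figure D4:**
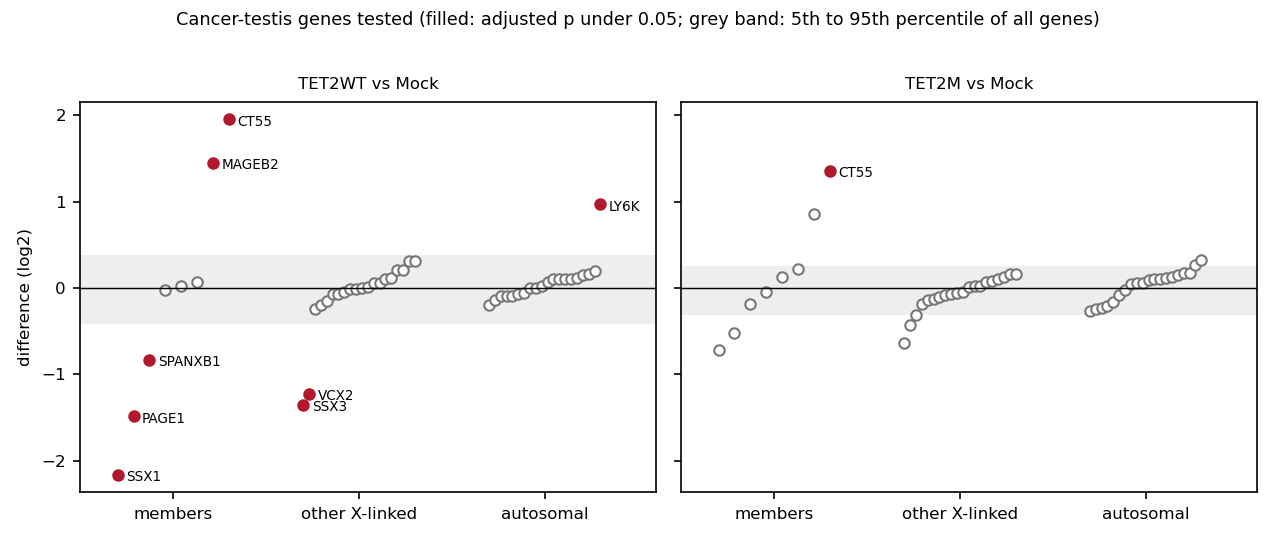
Log2 difference from Mock (y axis) of every tested cancer-testis gene, in TET2WT (left) and TET2M (right), sorted within the 10 genes of this account (8 tested), 20 other X-linked and 20 autosomal genes. Filled points passed an adjusted p of 0.05 and the grey band spans the 5th to 95th percentile of all 14428 genes. In TET2WT 5, 2 and 1 genes are filled in the 3 lists, and in TET2M CT55 alone.

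The neighbours of SSX1 and SPANXB1 within their own families were then read by probe set, including sets that the annotation gives to several genes, in a fit over all 54613 probe sets. This look at the families was decided after values had been seen. Of 14 SSX probe sets 11 passed the low-value level, 7 were lower in TET2WT than in Mock, none was higher, and all 14 differences were negative. Among all 54613 probe sets 0.813% passed as lower in this comparison. Against Mock 2 of the 14 were lower in TET2M, where 0.0366% of all sets passed as lower. The widest gap was in 210497_x_at, annotated to SSX2 and SSX2B, which read 3.5 and 3.72 in TET2WT, 6.16 and 6.02 in TET2M, and 7.16 and 7.46 in Mock. Its difference was -3.70 ± 0.13 in TET2WT (limma adjusted p = 3.54e-05) and -1.22 ± 0.13 in TET2M (adjusted p = 0.0490). Set 207493_x_at of the same pair of genes gave -3.36 ± 0.11 (adjusted p = 2.84e-05) and -1.27 ± 0.11 (adjusted p = 0.0177). The 3 lines took the same order in these sets as in SSX1. The set of SSX2B alone, 215885_at, read 2.19 to 2.39, below the low-value level on all 6 arrays. SSX2 and SSX1 are closely similar in sequence, and whether SSX2 RNA bound to the SSX1 set was not tested. The 3 sets of SSX4 and SSX4B gave -0.77, -0.30 and -0.12, of which the first passed (limma adjusted p = 0.0250). For the second, 211425_x_at, the difference was -0.76 at high and 0.17 at normal glucose. The third, 208586_s_at, read 1.99 to 2.24, below the low-value level on all 6 arrays, where a fall could hardly be seen.

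Of 5 SPANX probe sets, 1 of them of the overlapping transcript SPANXA2-OT1, 4 passed the level and 3 were lower in TET2WT than in Mock. Among all probe sets 0.813% passed as lower there. Set 220922_s_at, annotated to SPANXA1, SPANXA2, SPANXB1 and SPANXC, read 2.83 and 2.82 in TET2WT, 3.29 and 3.12 in TET2M, and 3.90 and 4.02 in Mock. No pair of lines overlapped, and the difference of TET2WT from Mock was -1.14 ± 0.11 (limma adjusted p = 0.00484). In TET2M it was -0.76 ± 0.11 (adjusted p = 0.153). Of the 13 sets annotated to several cancer-testis genes of other families, none passed against Mock in either overexpressing line. Set 209942_x_at of MAGEA3 and MAGEA6 read 11.35 and 11.26 in TET2WT against 11.30 and 11.26 in Mock. Between TET2WT and TET2M 1 of the 13 passed, where 0.623% of all probe sets passed as higher. It was 220257_x_at of NXF2 and NXF2B, copies of a gene for an RNA export factor made in the testis, which read 4.34 and 4.31 in TET2WT, 3.77 and 3.61 in TET2M, and 4.13 and 3.88 in Mock. TET2WT was above TET2M by 0.64 ± 0.10 (limma adjusted p = 0.0428). The other 2 sets of these genes gave 0.64 and 0.82, with adjusted p of 0.0608 and 0.0856.

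**Figure D5:**
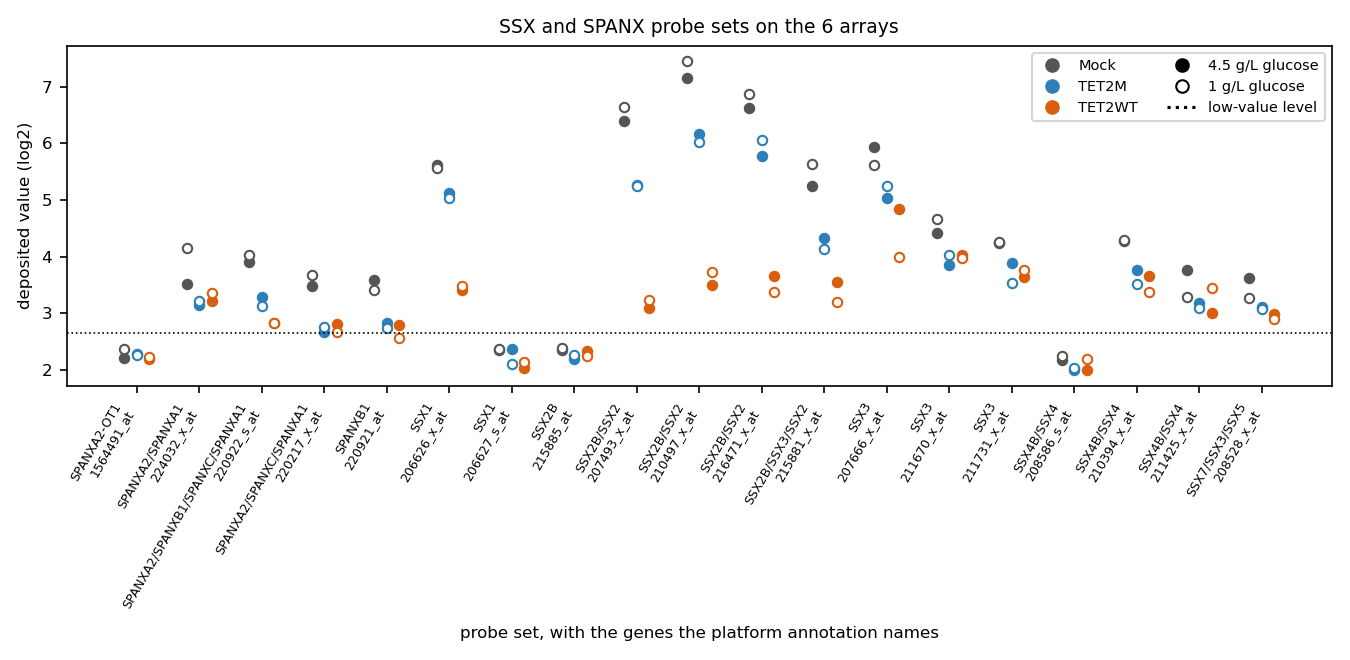
Deposited log2 values (y axis) of the 5 SPANX and 14 SSX probe sets (x axis, with their annotated genes) on the 6 arrays, coloured by line, filled for 4.5 g/L and open for 1 g/L glucose. In the sets annotated to SSX2 and SSX2B and no other gene the TET2WT arrays lie between 3.09 and 3.72, far below Mock and TET2M. Under the dotted low-value level of 2.64 on all arrays lie 4 sets, that of SSX2B alone among them.

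The genes beside the 10 on their chromosomes were also read. For each of the 10 genes the nearest tested gene on either side was read, and in TET2WT against Mock SSX3, 79.0 kb from SSX1, was the only such neighbour that passed, by 1 of its 3 sets as given above. RTL8A and ZNF75D, which flank CT55 at 104 and 76.8 kb, differed by 0.23 and 0.02. IL1RAPL1 and TASL, which flank MAGEB2 at 259 and 339 kb, differed by -0.26 and -0.06. Over the X chromosome 463 genes were tested, of which 16 were higher and 11 lower in TET2WT, with a median of 0.04. Among all genes 2.01% passed as higher and 2.2% as lower, with a median of -0.01. Without the cancer-testis genes 436 of the X chromosome remained, 14 higher and 6 lower.

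Genes that act on DNA methylation were read beside the 10. Of 28 listed, 25 were tested, and in TET2WT against Mock 2 were higher, TET2 among them, and 1 lower. Among all genes 2.01% passed as higher and 2.2% as lower. TET2, the overexpressed gene, differed by 5.64 ± 0.14. TET3, a second enzyme of the family, read 6.17 and 5.94 in TET2WT, below the 6.95 and 6.6 of TET2M and the 7.16 and 7.02 of Mock, a difference from Mock of -1.04 ± 0.096 (limma adjusted p = 0.00580). DNMT3A, a de novo DNA methyltransferase, was 0.49 ± 0.088 higher (adjusted p = 0.0430). IDH2, a mitochondrial isocitrate dehydrogenase that makes the TET cosubstrate, differed by 0.53 (adjusted p = 0.0515), and DNMT3B by -0.32 (adjusted p = 0.118). In TET2M against Mock TET2 alone passed, with 3.50 ± 0.14.

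Of 35 listed regulators of germline genes, mostly repressors, 33 were tested. In TET2WT against Mock 0 were higher and 3 lower, where 2.01% and 2.2% of all genes passed. Of the 33 differences 27 were negative. Their median was -0.15, beside a median of -0.01 and a lower quartile of -0.14 over all genes. CBX5 and CBX3, heterochromatin proteins that bind methylated histone H3, were lower by -0.84 ± 0.12 and -0.59 ± 0.090 (limma adjusted p of 0.0229 and 0.0261). ETS2, a transcription factor of the ETS family, was lower by -1.11 ± 0.13 (adjusted p = 0.0122). ETS1 of the same family differed by -0.47 (adjusted p = 0.0568). In TET2M against Mock none of the 33 passed, and ETS2 differed by -0.65 (adjusted p = 0.298).

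For the 3 genes with the widest range over the arrays, the tested genes most alike in pattern were sought among 544 genes outside the cancer-testis lists with a range of at least 1. Pearson's r over 6 arrays, which share lines and cultures, is given as a description. CT55 was closest to FCMR (r = 0.971), CCBE1 (0.936) and TET2 (0.932), and TET2 itself took the same order of lines as CT55. SSX1 was closest to VPS36, TENM2 and ADAMTS12, with r of 0.995 to 0.996, and 36 of the 544 genes exceeded 0.95. TENM2, a teneurin of neuronal contacts, read 2.5 and 2.2 in TET2WT, 5.11 and 4.83 in TET2M, and 5.92 and 5.74 in Mock. MAGEB2 was closest to IGFBP7 (0.962), FCMR (0.95) and SUSD1 (0.937), and 2 of the 544 exceeded 0.95.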

How the data were processed

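Total RNA of 3 A2058 lines at 2 glucose concentrations was hybridised to 6 arrays, per the labels. The authors deposited log2 probe set values, and the submitters' processing notes name Affymetrix Expression Console as the tool. The sources used here give no version, summary method or background correction. That the scale is log2 was inferred from the range of 1.56 to 13.78. After sorting, the 6 columns lie within 0.12 of each other, which shows a normalization between arrays before deposit that would hide a change shared by most genes.

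The platform annotation gives 1 gene for 41091 of 54675 probe sets, several for 1801 and none for 11783 (62 controls among them). For 41037 of the 41091, symbols were updated by gene ID through RefSeq (GRCh38.p14). Probe sets with a mean under the 40th percentile (2.64) were left out, and each gene was represented by its set of highest mean. The deposited values were fitted with limma 3.58.1 (lmFit, eBayes) in R 4.3.3 with terms for line and glucose, on 2 residual degrees of freedom with a prior of 3.97. A second model added a glucose term of TET2WT alone. Tests were two-sided, with Benjamini-Hochberg adjustment over all genes and a threshold of 0.05. The scripts were tested on simulated data. Python 3.11.15 and matplotlib 3.10.9 drew the figures.

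The 10 genes, the lists and the tests were chosen with earlier results of these data known. Genes named beside the 10 were TET2, list genes from among the 4 with the largest difference per list and comparison, the nearest tested neighbours, and the 3 genes most alike in pattern to each of the 3 widest-ranging of the 10. Probe sets naming several genes were added after values had been seen. Alternatives covered filter, probe set, normalization, variance, covariates and left-out arrays.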

Additional observations from a re-analysis of the deposited data

How the results depend on the processing

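With 6 arrays and no repeat of any combination, calls rested on 2 residual degrees of freedom. Leaving out an array left 1, and the genes called then numbered 0 to 0 of the 10 in every line comparison, 0 to 16 of all genes for TET2WT against Mock and 0 to 0 for the other 3 comparisons. Leaving out the 2 arrays of the line not compared gave 0, 0 and 0 of the 10 and 16, 0 and 0 of all genes, in the order TET2WT and TET2M each against Mock, then against each other. The fewer arrays are part of these settings. For the other settings the cause of a move was not tested. A variance trend on intensity called 2 of the 10 by glucose, 3 in TET2M against Mock and 6 when TET2WT was set against TET2M. It called 573, 149 and 1249 of all genes in that order, with 1528 in TET2WT against Mock. Without the glucose term 0 of the 10 passed for TET2M against Mock, and 318, 7 and 267 of all genes in the 3 line comparisons. For glucose, where 1 gene was called, no filter gave 2, the 60th percentile filter 5, the mean of a gene's probe sets 5, every single-gene probe set 4, quantile normalization 5, cyclic loess 3 and no line term 0. For TET2M against Mock, where 14 were called, the 60th percentile filter gave 22 and the mean of probe sets 25.

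The sign turned only for differences near 0 that did not pass. SSX1 by glucose was -0.0094 after quantile normalization and -0.01 to 0.07 without single arrays. MAGEC2 in TET2WT against Mock was 0.0063 after quantile normalization, 0.012 after cyclic loess and -0.063 to 0.013 without single arrays, and MAGEA4 there was -0.0025 to 0.043. PRAME without single arrays was -0.068 to 0.21 in TET2WT against Mock, -0.013 to 0.26 in TET2M against Mock and -0.15 to 0.04 in TET2WT against TET2M. PAGE1 in TET2M against Mock was -0.31 to 0.22, the highest without the Mock array at high glucose. SPANXB1 has no value under the 60th percentile filter. Leaving out arrays was not run for the TET2WT-specific response. The 5 calls in TET2WT against Mock kept their sign under all alternatives. The labels carry no replicate numbers. The lines are paired by glucose in the reported fit, and the fit without the glucose term is the unpaired one.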

Other observations

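These values were chosen after the data had been seen. CT83, an X-linked antigen that is not among the 10 genes, read higher at high glucose in 3 of 3 lines, with 6.06 against 5.65 in TET2WT, 6.27 against 5.57 in Mock and 6.17 against 5.57 in TET2M. Its difference was 0.57 ± 0.085 (limma adjusted p = 0.0999), close to the 0.56 of CT55, and did not pass. The 3 probe sets of CTAG1A and CTAG1B, which encode NY-ESO-1, read lower at high glucose in 3 of 3 lines, by -0.43, -0.41 and -0.29 over the lines (limma adjusted p of 0.175, 0.187 and 0.304). These also did not pass. The glucose differences of cancer-testis genes were thus of both signs.

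KRT14, a keratin of basal keratinocytes, read 4.55 and 3.89 in TET2WT, 6.22 and 5.91 in TET2M, and 6.86 and 6.38 in Mock, a difference of TET2WT from Mock of -2.40 ± 0.11 (limma adjusted p = 0.000442). The lines took the order seen in SSX1.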
